A study of Homo sapiens with 12 samples.

Results

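The mitotic kinesins are the microtubule motors that build the spindle, move chromosomes on it and complete cell division. Here they are 10 genes chosen by symbol, KIF11, KIF14, KIF15, KIF18A, KIF20A, KIF20B, KIF23, KIF2C, KIFC1 and CENPE, of 34886 genes in the mRNA tables. All 10 had a row and all 10 passed the filter on low counts, beside 13595 genes in all. They were measured in NCI-H446, an established line derived from a human small cell lung cancer and labelled H446, grown in DMEM with serum. The treated group had 8 h in CAPE (caffeic acid phenethyl ester, a compound of propolis known to inhibit NF-kB) at 40 µM, and the control group had an equal volume of the solvent dimethyl sulfoxide (DMSO). Each group had 3 mRNA libraries, so a single line, a single dose and a single time stand behind every value, and the labels name no synchronisation of the cells. The labels do not say whether replicates were separate cultures, and p-values therefore measure the spread between these libraries, which may be technical.

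Kinesins couple ATP hydrolysis in a conserved motor domain to stepping along microtubules, or, in some families, to taking microtubule ends apart. Most of the mitotic members are made late in the cell cycle, when their genes are switched on through promoter elements bound by the MuvB complex with MYBL2 and FOXM1 or, in quiescent and G1 cells, repressed by the DREAM complex. Their mRNA is therefore widely used as a sign of cycling cells. In a bulk sample, fewer cells in G2 and mitosis and less kinesin mRNA in each such cell cannot be told apart.

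The libraries held 17569997 to 20917508 estimated counts. DMSO 3 stood apart from the other 5 libraries, with 16207 genes detected against 17864 to 18587, and its deviation followed transcript length. In the tenth of tested genes with the longest transcripts DMSO 3 lay a median of -1.02 from the mean of DMSO 1 and DMSO 2 on the log2 CPM scale, and in the tenth with the shortest a median of 0.94. Each kinesin is therefore given with all 6 libraries and again without DMSO 3. Among neuroendocrine markers of the labelled cancer type, the transcription factors NEUROD1 and INSM1 stayed under 1 TPM in every library, so both were near 0 here. UCHL1 measured 15.7 to 24.3 TPM, and ENO2 18.1 to 31.1 TPM in DMSO and 134 to 144 TPM in CAPE. Of the epithelial markers, KRT8 and KRT18 were abundant and CDH1 stayed under 1 TPM. Summed markers of leukocytes reached at most 2.45 TPM and those of endothelium at most 4.06 TPM in any library, with CD3E and KDR at 0 throughout. Summed fibroblast markers measured 49.4 and 47.8 TPM in DMSO 1 and DMSO 2, 13.6 TPM in DMSO 3 and 49.1 to 58.8 TPM in CAPE, so the low value was that of DMSO 3, and their part in the kinesin results was not tested.

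All 10 kinesins were lower in every CAPE library than in DMSO 1 and in DMSO 2. With all 6 libraries, 2 of the 10 passed edgeR's quasi-likelihood test at an adjusted p under 0.05, KIF20A and KIF23, both lower, where 0.456% of all tested genes passed as lower. Without DMSO 3 all 10 fell, where 20.8% of 13919 tested genes fell. In that fit their median log2 fold change was -1.05, beside 0.00 over all tested genes, and they ranged from -2.35 (KIF20A) to -0.46 (KIF15). Of the 10, 9 passed with a log2 fold change of -0.5 or less and 5 with -1 or less, against 4.58% and 1.33% of all tested genes. The groups did not overlap in CPM for 10 of the 10 without DMSO 3, beside 31.2% of genes, and for 4 of the 10 with all 6 libraries, beside 20.6%. CPM here are counts scaled to the TMM-adjusted library size, and fold changes are CAPE against DMSO.

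**Figure D1:**
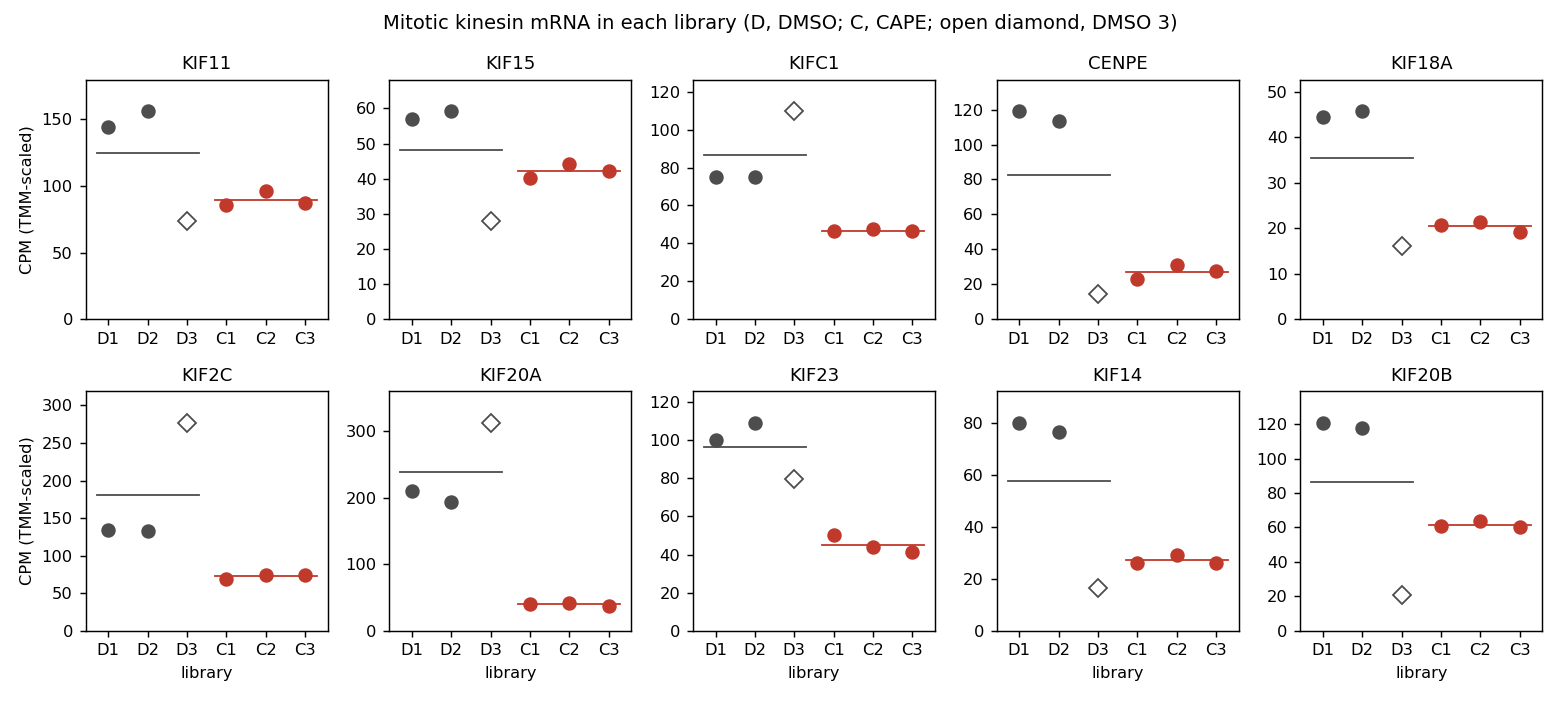
CPM (vertical axes from 0, one scale per panel) of each kinesin in the 3 DMSO libraries (D1 to D3, grey) and the 3 CAPE libraries (C1 to C3, red), with lines at the mean of 3. The CAPE points lie close together and below D1 and D2 in all 10 panels, while the open diamond (DMSO 3) lies below the CAPE points in 6 panels and above D1 and D2 in 3.

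The promoters of the 10 genes are shown because their mRNAs were lower together and because the elements of late cell-cycle promoters can be read in them. The cell cycle genes homology region is usually written TTTGAA. One related form is TTTAAA and another known form is TTCGAA. The element often lies downstream of CCAAT boxes, which bind NF-Y. RefSeq promoter windows of GRCh38.p14, from 250 bases before to 50 after the transcript start, were matched for 10 of the 10 by symbol, and each form was searched on both strands. TTTGAA was found in 7 of the 10 windows (all but KIF20A, KIF2C and CENPE), where 15.2% of 35116 windows in the table and 9.65% of 10069 windows of tested genes held it. TTTAAA was in 5 of the 10, against 12.2% of all windows and 7.69% of those of tested genes, and TTCGAA was in 0 of the 10, against 1.45% and 1.73%. At least one of these forms was in 10 of the 10, against 25.1% and 17.1%. CCAAT was in 7 of the 10, all but KIF15, KIF2C and CENPE, against 34.6% and 36.6%. TTTAAA reads the same on both strands, as the form TTCGAA also does, and no match of a form overlapped a CCAAT match in these 10 windows. These are matches of letters and not shown sites of binding. The match nearest to the start is given below with 12 bases on each side, 5′ to 3′ on the gene's strand, with the match in capitals (TTCAAA is the usual form read from the other strand).
KIF11, chr10:92593090-92593119, plus strand: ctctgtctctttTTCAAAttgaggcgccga
KIF15, chr3:44761747-44761776, plus strand: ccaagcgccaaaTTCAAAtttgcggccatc
KIFC1, chr6:33391815-33391844, plus strand: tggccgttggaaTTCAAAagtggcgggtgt
CENPE, chr4:103198388-103198417, minus strand: ggaaattttaaaTTTAAAggcggggcggcc
KIF18A, chr11:28108149-28108178, minus strand: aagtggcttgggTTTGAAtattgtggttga
KIF2C, chr1:44739822-44739851, plus strand: ttgcgcgcgggaTTTAAActgcggcggttt
KIF20A, chr5:138179059-138179088, plus strand: cgcagcgcgtaaTTTAAAatattgtatctg
KIF23, chr15:69414282-69414311, plus strand: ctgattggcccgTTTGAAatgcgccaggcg
KIF14, chr1:200620733-200620762, minus strand: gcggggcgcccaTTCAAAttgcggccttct
KIF20B, chr10:89701602-89701631, plus strand: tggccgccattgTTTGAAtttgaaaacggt
These matches began at base -28 in KIF11, -35 in KIF15, -62 in CENPE, -10 in KIF18A, -3 in KIF2C, -41 in KIF20A and -55 in KIF23, counted from the start with -1 as the last base before it. They began at base 5 in KIFC1, 2 in KIF14 and 25 in KIF20B, inside the transcript. For KIFC1 the 120 bases before the start used here, 33391703 to 33391822, lie inside the gene interval given below, which begins at 33391461. In KIF20B a second TTTGAA began at base 31, and in CENPE another TTTAAA directly before it, at base -68.

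The 120 bases before the start are given for 3 genes. KIF20A and KIF23 are the members that passed with all 6 libraries, and CENPE had the second largest fall without DMSO 3. Capitals mark the homology region forms and the CCAAT box, which reads as ATTGG from the other strand.
KIF20A, chr5:138178992-138179111, plus strand: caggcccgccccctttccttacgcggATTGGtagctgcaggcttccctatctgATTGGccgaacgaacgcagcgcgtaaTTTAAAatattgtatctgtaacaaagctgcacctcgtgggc
KIF23, chr15:69414229-69414348, plus strand: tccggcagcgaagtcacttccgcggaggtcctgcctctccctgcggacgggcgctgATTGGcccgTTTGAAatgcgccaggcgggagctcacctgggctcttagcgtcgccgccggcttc
CENPE, chr4:103198344-103198463, minus strand: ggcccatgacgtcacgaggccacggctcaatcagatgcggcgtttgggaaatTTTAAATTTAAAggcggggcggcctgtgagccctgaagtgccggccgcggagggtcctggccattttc
KIF20A carried 2 CCAAT boxes, at bases -94 and -67, ahead of its TTTAAA, and KIF23 had 1, at base -64, shortly before its TTTGAA. In CENPE no CCAAT was in the window of 300 bases. Of its 3 TTTAAA elements a pair stood next to each other, and the third began at base -195, outside the stretch printed here.

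The motors that set up the bipolar spindle, KIF11, KIF15 and KIFC1, had the 3 smallest falls without DMSO 3, which was not the order with 6 libraries. KIF11, the plus-end motor that slides antiparallel microtubules apart and so separates the spindle poles (chromosome 10, 92593130 to 92655395, GRCh38), measured 144, 156 and 74.0 CPM in DMSO 1, 2 and 3 and 85.6, 96.0 and 87.2 CPM in CAPE 1, 2 and 3. DMSO 1 and DMSO 2 were the highest and DMSO 3 the lowest of the 6 libraries, so the groups overlapped. The log2 fold change was -0.48 (SE 0.29) with 6 libraries and did not pass (edgeR adjusted p = 0.376). Without DMSO 3 KIF11 fell, its log2 ratio being -0.75 (SE 0.06, edgeR adjusted p = 1.11e-07), to 59.5% of the DMSO level.

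KIF15, which can hold the bipolar spindle when KIF11 is inhibited (chromosome 3, 44761794 to 44868687), measured 56.9, 59.3 and 27.9 CPM in DMSO and 40.3, 44.0 and 42.2 CPM in CAPE. Here too DMSO 3 was the lowest library, and the CAPE values lay between it and the other DMSO libraries. Its log2 fold change was -0.19 (SE 0.30, edgeR adjusted p = 0.707) with 6 libraries and -0.46 (SE 0.06, edgeR adjusted p = 3.49e-05) without DMSO 3, the smallest fall of the 10. KIFC1, the minus-end motor that bundles microtubules and clusters centrosomes (chromosome 6, 33391461 to 33409896), measured 74.8, 74.8 and 109.9 CPM in DMSO and 46.4, 47.4 and 46.4 CPM in CAPE. In CPM DMSO 3 was the highest library for this gene and the groups did not overlap. In TPM DMSO 3 (35.6) lay within the range of the CAPE libraries (35.4 to 37.8). The log2 fold change was -0.89 (SE 0.20, edgeR adjusted p = 0.105) with 6 libraries and -0.68 (SE 0.06, edgeR adjusted p = 1.98e-07) without DMSO 3.

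The motors that act on chromosomes and kinetochores were more unequal. CENPE, the large kinetochore motor that carries chromosomes toward the metaphase plate (chromosome 4, 103105811 to 103198343), measured 119, 113 and 14.4 CPM in DMSO and 23.1, 30.9 and 27.7 CPM in CAPE. DMSO 3 measured 0.124 times the level of DMSO 1 and DMSO 2 and lay below all 3 CAPE libraries. With 6 libraries the log2 fold change of -1.60 (SE 0.72) did not pass (edgeR adjusted p = 0.332). Without DMSO 3 CENPE fell, its log2 ratio being -2.10 (SE 0.08, edgeR adjusted p = 7.31e-11), to 23.4% of the DMSO level.

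KIF18A, which damps chromosome oscillations at microtubule plus ends (chromosome 11, 28020619 to 28108156), measured 44.5, 45.8 and 16.1 CPM in DMSO and 20.8, 21.4 and 19.1 CPM in CAPE. DMSO 3 was again the lowest of the 6 libraries. Its log2 fold change was -0.80 (SE 0.40, edgeR adjusted p = 0.346) and, without DMSO 3, -1.15 (SE 0.07, edgeR adjusted p = 1.39e-08). KIF2C, also called MCAK, removes tubulin from microtubule ends and helps to correct faulty kinetochore attachments (chromosome 1, 44739837 to 44767767). It measured 134, 133 and 277 CPM in DMSO and 69.3, 74.4 and 73.6 CPM in CAPE, with DMSO 3 highest by a factor of 2.08 over the other DMSO libraries. The groups did not overlap, but the log2 fold change of -1.32 (SE 0.32) with 6 libraries did not pass (edgeR adjusted p = 0.131). Without DMSO 3 it was -0.88 (SE 0.05, edgeR adjusted p = 3.86e-09).

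The motors of the central spindle and of cytokinesis included the 2 genes that passed in both fits. KIF20A, also called MKLP2, brings the chromosomal passenger complex to the central spindle (chromosome 5, 138179112 to 138187723). It measured 209.7, 193 and 313 CPM in DMSO and 40.0, 41.2 and 38.0 CPM in CAPE, so that every DMSO library lay far above every CAPE library. KIF20A fell in both fits, with log2 fold changes of -2.59 with 6 libraries (SE 0.23, edgeR adjusted p = 0.0124) and -2.35 without DMSO 3 (SE 0.06, edgeR adjusted p = 6.14e-13), a level 5.08-fold lower. Of 13919 genes, 13 had a log2 fold change as low as this or lower, KIF20A included, and for CENPE this number was 21. The call for KIF20A with 6 libraries was lost when DMSO 1 or any CAPE library was left out (edgeR adjusted p = 0.0696 to 0.151), while its log2 fold change stayed at -2.74 to -2.08 over all 19 alternatives.

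KIF23, also called MKLP1, forms centralspindlin with RACGAP1 and bundles the midzone (chromosome 15, 69414349 to 69448427). It measured 100.0, 109 and 79.8 CPM in DMSO and 50.5, 43.8 and 41.5 CPM in CAPE, without overlap in CPM. In TPM, DMSO 3 (20.3) lay below every CAPE library (30.1 to 30.9), with DMSO 1 and DMSO 2 at 58.8 and 65.7. KIF23 fell in both fits, at -1.09 with 6 libraries (SE 0.18, edgeR adjusted p = 0.0439) and -1.21 without DMSO 3 (SE 0.07, edgeR adjusted p = 8.00e-09). On the CPM scale DMSO 3 departed least from DMSO 1 and DMSO 2 for this gene, at a ratio of 0.763. Its call with 6 libraries was lost when any DMSO library other than DMSO 3, or any CAPE library, was left out (edgeR adjusted p = 0.158 to 0.326). It was also lost without the filter on low counts (0.0573) and in limma on log2(TPM + 1), where the log2 fold change was -0.48 (adjusted p = 0.571).

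KIF14, which binds citron kinase and PRC1 at the midbody (chromosome 1, 200551497 to 200620751), measured 80.0, 76.3 and 16.6 CPM in DMSO and 26.2, 29.0 and 26.2 CPM in CAPE. KIF20B, a midbody motor also called MPP1 (chromosome 10, 89701590 to 89774934), measured 121, 118 and 21.0 CPM in DMSO and 60.8, 63.7 and 60.4 CPM in CAPE. In both genes DMSO 3 lay below every CAPE library, and neither passed with 6 libraries, at log2 fold changes of -1.09 (SE 0.55, edgeR adjusted p = 0.349) and -0.49 (SE 0.60, edgeR adjusted p = 0.624). Both fell without DMSO 3, KIF14 at -1.53 (SE 0.07, edgeR adjusted p = 1.61e-10) and KIF20B at -0.96 (SE 0.05, edgeR adjusted p = 1.79e-09).

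**Figure D2:**
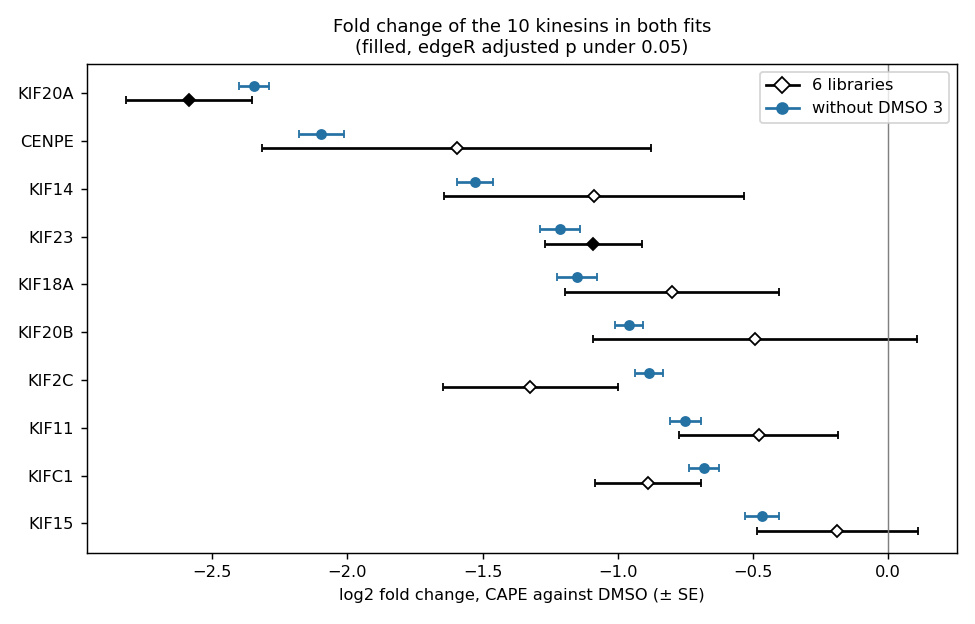
Log2 fold change of CAPE against DMSO (horizontal axis, ± SE) for the 10 kinesins with all 6 libraries (black diamonds) and without DMSO 3 (blue circles), filled where the edgeR adjusted p was under 0.05. All 20 values lie below 0, and the SE is 0.18 to 0.72 with 6 libraries and 0.05 to 0.08 without DMSO 3.

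The place of DMSO 3 among the libraries differed between kinesins and went with their transcript length. Relative length was taken as counts over TPM, scaled to the median tested gene. CENPE (4.26 times the median), KIF14 (3.72) and KIF20B (3.14) had the longest transcripts, and DMSO 3 deviated from DMSO 1 and DMSO 2 by -3.01, -2.23 and -2.50 on the log2 scale for these. KIFC1 (0.991), KIF2C (1.10) and KIF20A (1.40) lay nearer the median, at deviations of 0.55, 1.05 and 0.64. KIF23 also lay near the median (1.24) but deviated the other way, by -0.39. Across the 10 genes Pearson's r between log2 relative length and this deviation was -0.90 and Spearman's rho -0.89, as a description over genes of the same libraries, and across 13595 genes r was -0.40. In CPM, DMSO 3 was at or under 1/2 of the level of DMSO 1 and DMSO 2 for 6 of the 10, beside 21% of tested genes. It was below every CAPE library in CPM for the same 6, beside 48.2%. When each library's trend with length was entered as an offset, an alternative chosen after seeing the data, 4 of the 10 passed as lower with 6 libraries (KIF11, KIF20A, KIF23 and KIFC1), beside 0.942% of genes. When limma voom weighted the libraries by their quality, also chosen afterwards, DMSO 3 had a weight of 0.0200 against 2.02 to 2.46 and all 10 passed as lower, beside 19.7% of genes.

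**Figure D3:**
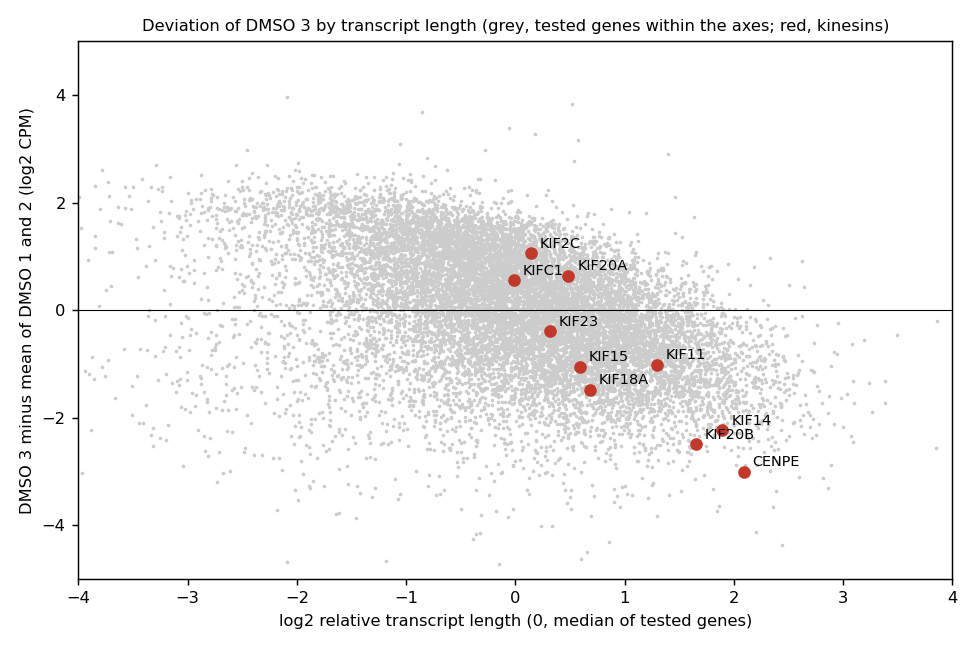
Difference of DMSO 3 from the mean of DMSO 1 and DMSO 2 (vertical axis, log2 CPM) against log2 relative transcript length (horizontal axis, 0 at the median tested gene), with tested genes in grey and the kinesins in red. The kinesins run from KIF2C, KIF20A and KIFC1 above 0 to CENPE, KIF20B and KIF14, the longest, at -2.23 and below.

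Levels of different kinesins were compared per transcript length, in TPM as deposited. In DMSO 1 and DMSO 2 the order was KIF20A (112 and 104 TPM), KIF2C (91.5 and 90.2), KIF23 (58.8 and 65.7), KIFC1, KIF11, KIF20B, KIF15, KIF18A, CENPE and KIF14 (16.2 and 15.4). None of the 9 pairs of neighbours in that order overlapped, and 8 of 9 did when DMSO 3 was included. In CAPE KIF2C led (51.8, 53.0 and 47.6 TPM), followed by KIFC1, KIF23, KIF11 and then KIF20A (23.1, 22.7 and 19.9 TPM), which had been first. Neighbours overlapped in 2 of 9 pairs there, KIF20A with KIF15 and KIF14 with CENPE. Summed over the 10 genes, the level was 474.7, 474.9 and 238 TPM in DMSO and 222, 231 and 222 TPM in CAPE. DMSO 3 lay near the CAPE libraries in this sum, which holds for TPM only. These TPM are not TMM-scaled, and the TMM factor was 0.699 in DMSO 3 against 1.07 to 1.09 in the other libraries. In CPM, DMSO 3 lay below every CAPE library for 6 of the 10. It lay far above them for KIF20A (313 against 38.0 to 41.2 CPM) and KIF2C (277 against 69.3 to 74.4 CPM).

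Within that sum KIF20A made up 23.6%, 21.8% and 31.8% in DMSO 1, 2 and 3 and 10.4%, 9.84% and 8.99% in CAPE. This share does not depend on how libraries are scaled, and it was lower in all 3 CAPE libraries than in any DMSO library. It does carry the length-linked deviation of DMSO 3. There the long members KIF14 and KIF20B made up 0.716% and 1.23%, against 3.41% and 6.02% in DMSO 1. CENPE made up 4.39% and 4.25% in DMSO 1 and 2 and 1.82% to 2.75% in CAPE, with 0.514% in DMSO 3. The share of KIF15 was 5.24%, 5.50% and 3.93% in DMSO and 9.40%, 9.44% and 10.2% in CAPE, higher in every CAPE library. That of KIF2C was 19.3% and 19.0% in DMSO 1 and 2, 32.2% in DMSO 3 and 21.5% to 23.3% in CAPE. On the TPM scale KIF15 retained 85.3% of its DMSO 1 and 2 level, KIFC1 65.4%, CENPE 25.2% and KIF20A 20.3%. In KIF15 the TPM change was smaller than the change in CPM, which left 72.5%.

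**Figure D4:**
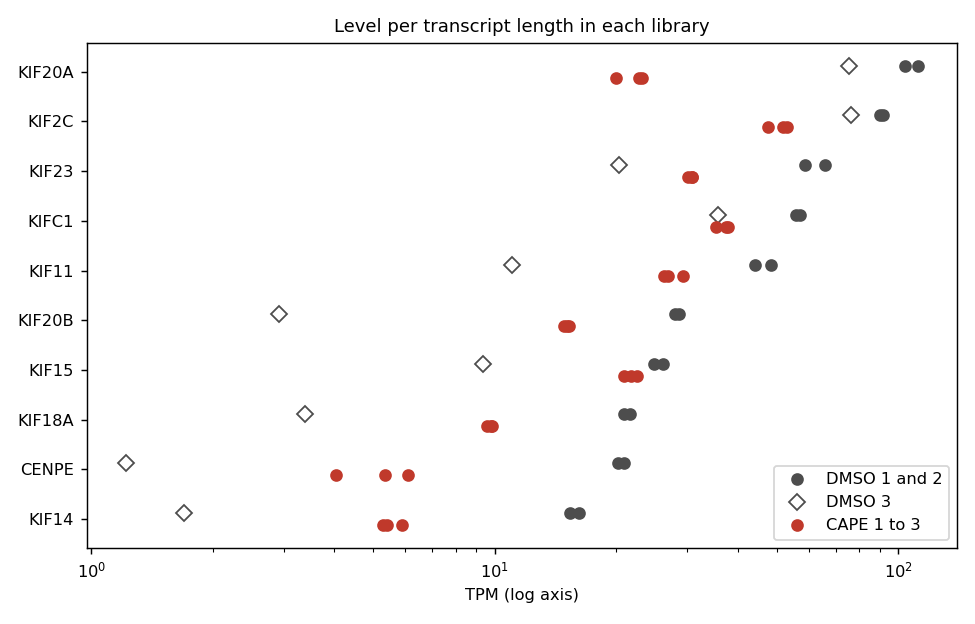
TPM of each kinesin (log horizontal axis) in DMSO 1 and 2 (grey circles), DMSO 3 (open diamonds) and the CAPE libraries (red), ordered by the mean of DMSO 1 and 2. KIF20A, at the top with 104 and 112 TPM in those libraries, measured 19.9 to 23.1 TPM in CAPE.

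Other kinesins gave a comparison within the superfamily. Of 6 further kinesins with mitotic roles 4 were tested, while KIF4B and KIF2B did not pass the filter. KIF4A, a chromokinesin that works with PRC1, measured 151, 148 and 207 CPM in DMSO and 78.5, 79.4 and 75.3 CPM in CAPE and fell by 1.12 on the log2 scale with 6 libraries (edgeR adjusted p = 0.0434). Its reads may be hard to separate from those of its near-identical copy KIF4B, which had estimated counts of 0 or 1 in every library. Without DMSO 3, KIF4A, the chromokinesin KIF22 and the plus-end motor KIF18B fell (-0.95, -0.81 and -0.60). With 6 libraries KIF22 (-1.39, edgeR adjusted p = 0.178) and KIF18B (-0.44, edgeR adjusted p = 0.337) did not pass. The end-depolymerising KIF2A passed in neither fit (83.3, 91.0 and 39.5 CPM in DMSO, 85.6, 87.0 and 82.5 CPM in CAPE, log2 fold change 0.25 with 6 libraries and -0.04 without DMSO 3). Of 22 tested kinesins of transport, cilia and other roles, none fell and 1 rose with 6 libraries by edgeR (0 lower and 4 higher at an unadjusted p under 0.05, and 0 lower and 2 higher by DESeq2). Without DMSO 3, 4 fell and 5 rose, the median being 0.02, beside 20.8% and 20.4% of all genes.

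The kinesin that rose in both fits was KIF21B, a neuronal and immune cell motor that limits microtubule growth. It measured 9.96, 8.77 and 8.55 CPM in DMSO and 41.1, 39.2 and 39.5 CPM in CAPE, with all 3 DMSO libraries alike in CPM and no overlap. In TPM, DMSO 3 (0.674) lay below DMSO 1 and DMSO 2 (1.78 and 1.65), and all 3 lay below CAPE (7.26 to 7.48). The log2 fold change of KIF21B was 2.13 (edgeR adjusted p = 0.00566) with 6 libraries and 2.09 (SE 0.09) without DMSO 3, where 1.49% of genes rose with 6 libraries. KIF6, KIF26B and KIF13B, next by p in that list, did not pass with 6 libraries (edgeR adjusted p = 0.107, 0.186 and 0.188), and KIF6 and KIF26B reached at most 1.22 and 1.27 CPM in any library. Among 6 tested light chains and adaptors none passed with 6 libraries by edgeR (0 lower and 1 higher at an unadjusted p under 0.05, and 0 in either direction by DESeq2), and KLC3 alone rose without DMSO 3, from under 1 CPM in DMSO 1 and DMSO 2. KIFBP, KLC2 and KLC4 were next by p in that list (edgeR adjusted p = 0.360, 0.376 and 0.492).

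Dynein and dynactin, the minus-end motor and its activator, had 0 of 17 tested genes passing with 6 libraries by edgeR (1 lower at an unadjusted p under 0.05, and 1 lower by DESeq2). The heavy chain DYNC1H1 and the intermediate chain DYNC1I1 did not pass the filter, with counts of at most 12 and 10 in any library, so neither was tested. In CAPE 1 the 12 counts of DYNC1H1 stood at 2.47 TPM. That is about as few counts per TPM as for the light chain DYNLL1 (2426 counts at 457 TPM, relative length 0.213). The DYNC1H1 row thus appears to stand for a short transcript and may not give the level of the heavy chain gene. Without DMSO 3, 5 of 17 fell and 2 rose, the median being -0.07, beside 20.8% and 20.4% of all genes. NDE1, a dynein regulator of mitosis, was the largest of these falls (-0.69, and -0.94 with 6 libraries), with 34.0, 31.9 and 52.3 CPM in DMSO and 21.2, 20.4 and 19.9 CPM in CAPE. NDEL1, its paralogue, rose (0.25), and the light chain DYNLL1 and the intermediate chain DYNC1I2 fell (-0.30 and -0.33). With 6 libraries these 3 had log2 fold changes of 0.29, -1.02 and -0.28. Tubulins, which form the track, had 0 of 11 passing with 6 libraries by edgeR (4 lower and 1 higher at an unadjusted p under 0.05, and 3 lower and 1 higher by DESeq2) while 6 fell and 2 rose without DMSO 3 (median -0.23), beside 20.8% and 20.4% of all genes. DMSO 3 exceeded DMSO 1 and DMSO 2 in all 11 tubulins, by 1.17 to 1.85 on the log2 scale. TUBA1C, an alpha tubulin, measured 865, 842 and 2463 CPM in DMSO and 415, 425 and 394 CPM in CAPE. Without DMSO 3 TUBA1C, TUBB4B and TUBB fell (-1.06, -0.80 and -0.63), and TUBB2B, at 0 to 0.274 CPM in DMSO and 0.634 to 1.17 CPM in CAPE, rose. TUBA1A also rose in that fit (1.02, edgeR adjusted p = 4.84e-05), with 8.06 and 10.7 CPM in DMSO 1 and 2 and 17.2 to 22.2 CPM in CAPE. DMSO 3 (29.8 CPM) lay above every CAPE library for TUBA1A. Its log2 fold change with 6 libraries was 0.24 (edgeR adjusted p = 0.779). The log2 fold changes of TUBA1C, TUBB4B and TUBB with 6 libraries were -1.76, -1.69 and -1.18. Tubulin genes are similar in sequence, and reads may be split between them.

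Among direct partners of the kinesins, all 12 tested genes of the central spindle and cytokinesis fell without DMSO 3 (median -0.99), beside 20.8% of all genes. With 6 libraries 4 of the 12 fell, PRC1, RACGAP1, PLK1 and INCENP, beside 0.456% of all genes. In ECT2, CIT, ANLN and CEP55 the groups overlapped in CPM when DMSO 3 was included. RACGAP1, the other subunit of centralspindlin, measured 155, 153 and 197 CPM in DMSO and 65.1, 72.8 and 70.6 CPM in CAPE, a log2 fold change of -1.28 with 6 libraries (edgeR adjusted p = 0.0256) and -1.15 without DMSO 3, beside -1.21 for its partner KIF23. PRC1, which crosslinks midzone microtubules and recruits KIF14 and KIF4A, measured 239.5, 238.7 and 264 CPM in DMSO and 116, 107 and 123 CPM in CAPE (-1.10 with 6 libraries, edgeR adjusted p = 0.0256, and -1.05 without DMSO 3). In TPM, DMSO 3 (109) lay below every CAPE library (111 to 134) for PRC1. PLK1, the mitotic kinase that phosphorylates and binds KIF20A, had the largest fall of the list (-2.59 without DMSO 3, beside -2.35 for KIF20A, and -3.22 with 6 libraries, edgeR adjusted p = 0.0309). AURKB (-0.87) and INCENP (-1.14) of the chromosomal passenger complex, the cargo of KIF20A, fell without DMSO 3, as did CIT (-0.83), the citron kinase bound by KIF14, and ECT2 (-0.98), the activator of RhoA that centralspindlin recruits. With 6 libraries INCENP was at -1.05 (edgeR adjusted p = 0.0335), while AURKB (-1.55), CIT (-0.59) and ECT2 (-0.64) did not pass (edgeR adjusted p = 0.185, 0.328 and 0.370). In TPM, DMSO 3 lay below every CAPE library for INCENP too (34.0 against 42.9 to 46.4), but above them for RACGAP1 and PLK1.

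Of 15 tested genes of spindle assembly and poles 5 fell with 6 libraries and 13 without DMSO 3 (median -0.95), beside 0.456% and 20.8% of all genes. AURKA, the pole kinase, measured 107, 100.2 and 175 CPM in DMSO and 33.7, 36.6 and 32.2 CPM in CAPE (-1.90 with 6 libraries, edgeR adjusted p = 0.0265, and -1.61 without DMSO 3). TPX2, which activates AURKA and binds KIF11 and KIF15, measured 263, 258 and 407 CPM in DMSO and 109, 119.9 and 119 CPM in CAPE. Its log2 fold change was -1.42 with 6 libraries (edgeR adjusted p = 0.0407) and -1.17 without DMSO 3, beside -0.75 for KIF11 and -0.46 for KIF15. KNSTRN and NUSAP1 also passed in both fits (-1.37 and -0.89 with 6 libraries, -1.19 and -0.95 without DMSO 3). In TPM, DMSO 3 lay below every CAPE library for NUSAP1 (83.8 against 126 to 154) and above them for KNSTRN (76.6 against 52.9 to 56.7). Of 21 tested kinetochore and plus-end genes 2 fell with 6 libraries and 14 without DMSO 3 (median -0.38), beside the same 0.456% and 20.8%. SKA1, SGO1 and KNTC1 lay above 0 in both fits without passing. BUB1B, the checkpoint kinase that binds CENPE, passed in both fits (-1.38, edgeR adjusted p = 0.0254, and -1.51), and so did NDC80 (-0.97, edgeR adjusted p = 0.0439, and -1.06). CENPF, a kinetochore protein that binds CENPE, measured 496, 459.6 and 134 CPM in DMSO and 165, 184 and 153 CPM in CAPE, with DMSO 3 below every CAPE library as in CENPE itself, and fell without DMSO 3 (-1.52) but did not pass with 6 libraries (-1.12, edgeR adjusted p = 0.319). BUB1 and SPC25 fell without DMSO 3 (-0.88 and -0.46) and did not pass with 6 libraries (-0.79 and -0.58, edgeR adjusted p = 0.0609 and 0.207).

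Regulators of late cell-cycle transcription formed the last list. None of 14 passed with 6 libraries by edgeR (1 lower at an unadjusted p under 0.05, and 0 by DESeq2), and 5 fell and 2 rose without DMSO 3 (median -0.14), beside 20.8% and 20.4% of all genes. FOXM1 measured 251, 250.1 and 383 CPM in DMSO and 212, 223 and 205 CPM in CAPE and fell without DMSO 3 (-0.24, SE 0.04), beside -0.47 with 6 libraries (edgeR adjusted p = 0.337). MYBL2 measured 179, 172 and 551 CPM in DMSO and 222, 220.2 and 210 CPM in CAPE and rose by 0.30 (SE 0.05) without DMSO 3, while its log2 fold change with 6 libraries was -0.47 (edgeR adjusted p = 0.559). LIN54, the DNA-binding subunit of MuvB, rose without DMSO 3 (0.61), and E2F4 and NFYC fell (-0.35 and -0.27). With 6 libraries these 3 had log2 fold changes of 0.99, -0.66 and -0.72.

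**Figure D5:**
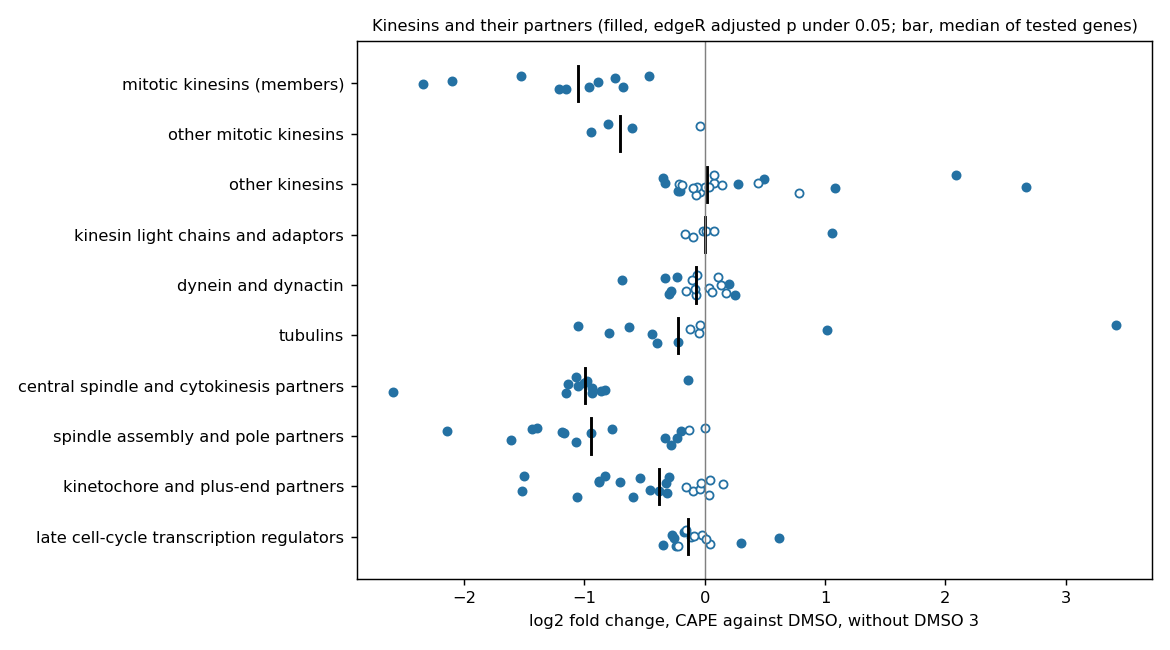
Log2 fold change without DMSO 3 (horizontal axis) of each tested gene in the kinesin list and 9 related lists (rows), filled where the edgeR adjusted p was under 0.05, with a bar at each median. The mitotic kinesins (median -1.05) and the central spindle and spindle assembly partners (-0.99 and -0.95) lie to the left of the other kinesins (0.02), dynein and dynactin (-0.07) and the transcription regulators (-0.14).

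The genes most like the kinesins were taken as those with the smallest Euclidean distance, over the 6 libraries, between their centred log2 CPM and the median profile of the 10. They were NEXN (0.171), ANLN (0.188), FSD2 (0.221), DEPDC1 (0.223) and MKI67 (0.241). ANLN, an actin-binding scaffold of the cleavage furrow, measured 353, 356 and 162.3 CPM in DMSO and 165, 180.1 and 162.0 CPM in CAPE. MKI67, which encodes the proliferation marker Ki-67, measured 549, 507 and 242 CPM in DMSO and 261, 274 and 243.5 CPM in CAPE, and DEPDC1 141, 137 and 57.5 CPM and 55.7, 60.8 and 58.1 CPM. NEXN and FSD2 stayed under 7 CPM in every library. The choice by distance over all 6 libraries largely fixed where DMSO 3 would lie in these 5 genes. In CPM, DMSO 3 lay at or near the CAPE level in them and far below DMSO 1 and DMSO 2. That is the median CPM pattern of the 10 kinesins and not that of KIF20A, KIF2C, KIFC1 or KIF23. For these DMSO 3 lay above every CAPE library in CPM, while in TPM this held for KIF20A and KIF2C only.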

How the data were processed

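RNA of NCI-H446 cells was sequenced as paired 150-base reads in 3 DMSO and 3 CAPE mRNA libraries. Of 12 samples in the series, the 6 miRNA libraries were not used. The deposited estimated counts (expected counts) per gene symbol are whole numbers and appear rounded, since 32 to 65 genes in each library have a count of 0 but some TPM. The submitters' processing notes name bcl2fastq, kallisto 0.46.1 and GRCh38. The deposited TPM of the authors divide by transcript length. How transcripts were summed to genes is not given in the sources used here.

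Counts were filtered with filterByExpr, scaled with TMM and tested with edgeR 4.0.16 (quasi-likelihood F test, R 4.3.3), with Benjamini-Hochberg adjustment over all tested genes. The SE is the size of the log2 fold change over the square root of F. Lists were counted without a set test. Members, lists and the naming rule were chosen with earlier results of these data known. The rule named all 10 members, the tested further mitotic kinesins, up to 4 genes of each list by smallest p with 6 libraries, 11 fixed partners and the 5 most alike genes. KIF4B, KIF2B, DYNC1H1 and DYNC1I1 were named as untested, CD3E, KDR and CDH1 as markers, and CEP55, SKA1, SGO1, KNTC1 and TUBA1A after their values were seen. The full neuroendocrine marker list is not reported here. Alternatives used DESeq2 1.42.0, limma 3.58.1, other scaling, no filter, a replicate block and each library left out. Code was tested on simulated data. Total counts of 17569997 to 20917508 limit the precision of low values. KIFBP was matched by its older symbol.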

Additional observations from a re-analysis of the deposited data

How the results depend on the processing

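The direction of the kinesins was below 0 in all 19 alternatives for 8 of the 10. The exceptions were KIF15 and KIF20B in limma on log2(TPM + 1), at 0.23 and 0.10, and on log2(TPM + 0.1), at 0.25 and 0.18, where TPM are not TMM-scaled and DMSO 3 is included. Leaving out a library in turn gave 0 to 5731 changed genes (265 with 6 libraries), 0 to 10 lower members (2), 0 to 62 lower genes of the other lists (12) and 0 to 12 higher (1), the upper ends without DMSO 3 and the lower ends without CAPE 1 or CAPE 3 (0 genes each, with 1178 and 1099 at an unadjusted p under 0.05). The labels share replicate numbers but state no pairing, so the numbers were not taken as pairs. Deviations of same-numbered libraries had r of -0.19, 0.14 and -0.0085. These cannot decide on pairing, since the outlying DMSO 3 shapes the deviations of all DMSO libraries. Against CAPE 1, DMSO 1 and DMSO 2 gave -0.19 and -0.18 and DMSO 3 gave 0.20. With a replicate block no gene, member, or lower or higher list gene passed (0 each, with 1384 genes and 4 members at an unadjusted p under 0.05). With the block and without DMSO 3, 5025 genes, 10 members, 60 lower and 10 higher list genes passed. Without a filter 1 member passed. DESeq2 gave 1022 genes, 4 members, 25 lower and 3 higher list genes. limma on log2(TPM + 1) gave 135, 1 and 7, with 1 higher, and on log2(TPM + 0.1) 88, 1, 6 and 0. The length offset gave 408 genes, 4 members and 0 higher list genes, and library weights 5592, 10, 60 and 13. The length offset, the weights and the combinations of another setting with leaving out DMSO 3 were chosen after seeing the data. Without DMSO 3, DESeq2 gave 4715, 10, 60 and 9, RLE size factors 5733, 10, 62 and 13, limma on log2(TPM + 1) 3046, 9, 47 and 8 (KIF15 not passing), and the length offset 5823, 10, 62 and 12. The rank correlation of the members' TPM order between DMSO and CAPE was 0.867, and 0.842 without DMSO 3. The causes of these differences were not tested. Only DMSO 1 and DMSO 2 stand for the control in every fit without DMSO 3.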

Other observations

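The promoter elements searched in the kinesins were also counted in the related lists, as a description with no test. TTTGAA or one of its related forms was in 17.2% of 10235 windows of genes tested without DMSO 3, and both a form and CCAAT in 7.09%. Such a form was in 4 of 6 windows of the further mitotic kinesins and 8 of 10 of central spindle and cytokinesis genes. It was also in 8 of 12 of spindle assembly genes and 14 of 17 of kinetochore genes. It was in 3 of 20 windows of the transport and other kinesins, 2 of 12 of tubulins, 0 of 17 of dynein and dynactin and 2 of 12 of the transcription regulators. Of the genes that fell at least 2-fold without DMSO 3, the kinesins left out, 127 of 180 had a window, and 45.7% of these held one of the forms and 30.7% both a form and CCAAT. Of the genes that rose at least 2-fold, 402 of 610 had a window, and 15.9% and 4.98% did.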
